A study of Homo sapiens with 5 samples.

Results

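The olfactory receptor gene clusters were followed through 3 Hi-C contact maps of HL60 cells. They were taken by position as 13 stretches of the hg19 genome on 8 chromosomes, which cover 31 of the 5630 bins of 500 kb that held enough contacts to be analysed. The rule uses positions only. Each cluster is named here by its chromosome band: 1q23 (chromosome 1, 158 to 159.5 Mb), 1q44 (chromosome 1, 247.5 to 249 Mb), 7q35 (chromosome 7, 143 to 144 Mb), 9q31 (chromosome 9, 107 to 108 Mb), 9q33 (chromosome 9, 125 to 126 Mb), 11p15 (chromosome 11, 4.5 to 6.5 Mb), 11q11 (chromosome 11, 55 to 56.5 Mb), 11q12 (chromosome 11, 57.5 to 60 Mb), 11q24 (chromosome 11, 123.5 to 124.5 Mb), 12q13 (chromosome 12, 55.5 to 56 Mb), 14q11 (chromosome 14, 20 to 21 Mb), 17p13 (chromosome 17, 3 to 3.5 Mb) and 19p13 (chromosome 19, 9 to 9.5 Mb).

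HL60 is a human promyelocytic leukaemia line that matures along the granulocyte lineage under all-trans retinoic acid (ATRA) and along the monocyte and macrophage lineage under the phorbol ester TPA. The maps were made from untreated cells (2 libraries merged), ATRA-treated cells (1 library) and TPA-treated cells (2 libraries merged), with 10628045, 9632300 and 10423501 contacts. Treatment dose and duration are not stated in the sources used here. Merged libraries cannot be separated, so each condition is a single measurement without replicates, and no p-value is given. Library and treatment cannot be told apart. All intervals are 95% intervals that cover counting error only, and PCR copies of a ligated fragment are not independent molecules. As a check of the cell line, the bin of highest coverage in each map lay at 130 to 130.5 Mb on chromosome 8, in the long-arm region known to be amplified in HL60, with 15.6, 16.1 and 15.1 times the median.

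Olfactory receptors are G protein-coupled receptors of sensory neurons in the nose, where they bind odorants and signal through the G protein subunit encoded by GNAL and the adenylyl cyclase encoded by ADCY3. Each mature olfactory neuron expresses a single receptor allele. In those neurons the silent clusters carry heterochromatin marks and gather from many chromosomes into shared foci, with the help of the factors LHX2, LDB1 and EBF. Myeloid cells are not a site of olfactory receptor choice, and expression was not measured in this series. In Hi-C maps, chromatin separates into an A compartment, rich in active genes, and a B compartment, rich in silent chromatin. The maps of HL60 therefore show where receptor clusters lie between these compartments in a cell type outside the nose, and whether clusters meet each other there.

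In the RefSeq table (GRCh38.p14, used for names and gene order only, since the maps use hg19), runs of neighbouring receptor genes at these bands held 529 of 875 olfactory receptor genes and pseudogenes, 288 of them protein-coding. Cluster 11q11 held 106, of which 46 were coding, 24 of these in family OR5 and 11 in family OR8. Cluster 11p15 held 103, of which 55 were coding. All 55 were class I receptors of the families OR51, OR52 and OR56, the class related to the receptors of fish. This run also surrounds the beta-globin genes HBB, HBD, HBG1, HBG2 and HBE1 and the antiviral genes TRIM5 and TRIM22. Cluster 1q44 held 43 coding receptors, 33 of them of family OR2. The other clusters held from 8 coding receptors (9q31 and 19p13) to 22 (11q24). Several runs enclosed genes of other function: 1q23 held the interferon-inducible DNA sensors IFI16 and AIM2 with MNDA, a myeloid nuclear antigen, 7q35 held the bitter taste receptors TAS2R39, TAS2R40, TAS2R41 and TAS2R60, 14q11 held the DNA repair genes PARP2 and APEX1, and 19p13 held MUC16, a mucin, and the zinc finger genes ZNF558 and ZNF317. No other coding gene lay inside the runs of 9q31, 9q33, 12q13 and 17p13.

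The 250 bases upstream of the annotated starts of 235 coding receptors of the clusters were poor in G and C, at a mean of 37.8% against 56.9% over all 27303 genes with such a window. RefSeq models of receptor genes often begin at or near the coding sequence. An ATG lay in the first 50 bases after 74.5% of receptor starts and 40.7% of all starts, so many windows may not be promoters. The letters TAATTA, the core recognised by many homeodomain proteins, stood in 20% of the receptor windows and 4.49% of all windows. This palindrome reads the same on both strands. It holds only A and T, and the compared windows were not matched on base composition, whose part in the difference was not tested. The letters TCCC and GGGA separated by 2 bases, a core recognised by EBF factors and palindromic too, stood in 1.28% of receptor windows and 1.08% of all windows. Mean G and C content ran from 32.4% at 11q11 to 45.6% at 17p13. For 4 clusters that differ most in the compartment measures below, 1 window is shown, the one with TAATTA (in capitals) whose G and C content lies nearest the median of its cluster. Cluster 19p13 had a single window with these letters, so there was no choice among windows, and its 32% lies below the 43.1% mean of the cluster. The sequences are from RefSeq on GRCh38.p14, 5′ to 3′ on the strand of the gene: OR2T6 of 1q44 (chr1:248375496-248375745, plus strand, 37.2% G and C), OR5M11 of 11q11 (chr11:56543258-56543507, minus strand, 30.4%), OR1A2 of 17p13 (chr17:3197269-3197518, plus strand, 39.6%) and OR7G1 of 19p13 (chr19:9115764-9116013, minus strand, 32%).
OR2T6: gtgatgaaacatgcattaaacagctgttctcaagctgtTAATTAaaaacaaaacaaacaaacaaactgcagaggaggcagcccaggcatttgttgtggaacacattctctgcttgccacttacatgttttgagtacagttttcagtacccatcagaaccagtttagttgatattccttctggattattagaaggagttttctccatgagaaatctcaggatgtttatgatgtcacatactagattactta
OR5M11: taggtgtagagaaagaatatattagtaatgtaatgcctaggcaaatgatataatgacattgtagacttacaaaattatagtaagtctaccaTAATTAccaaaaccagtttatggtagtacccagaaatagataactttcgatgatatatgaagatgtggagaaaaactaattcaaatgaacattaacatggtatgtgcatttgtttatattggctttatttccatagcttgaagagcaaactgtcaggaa
OR1A2: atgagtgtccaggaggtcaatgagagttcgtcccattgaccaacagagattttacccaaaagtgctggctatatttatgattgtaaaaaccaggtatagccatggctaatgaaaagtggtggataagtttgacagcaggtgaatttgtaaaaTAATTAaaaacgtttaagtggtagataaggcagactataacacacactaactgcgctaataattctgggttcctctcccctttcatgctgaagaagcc
OR7G1: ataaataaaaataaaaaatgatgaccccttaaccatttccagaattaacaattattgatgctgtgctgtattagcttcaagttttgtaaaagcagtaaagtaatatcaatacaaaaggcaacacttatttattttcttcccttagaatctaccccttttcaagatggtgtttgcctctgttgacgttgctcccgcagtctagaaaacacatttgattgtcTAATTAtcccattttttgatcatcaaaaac
The OR5M11 window of 11q11 was the lowest of the 4 in G and C and came from the cluster with the lowest mean. The presence of these letters is a description of the sequence and says nothing about binding in HL60.

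Receptor clusters lay on both sides of the compartment boundary, close to the proportions of the whole genome. The compartment score is the leading eigenvector of the contacts of a chromosome with itself, centred on the chromosome and scaled to its SD, positive on the A side and negative on the B side. The median score of the 31 bins was -0.26 in untreated, -0.33 in ATRA-treated and -0.37 in TPA-treated cells, against -0.15, -0.23 and -0.28 over all bins. In untreated cells 18 of 31 bins lay on the B side (58.1%), where all bins gave 54% and those of the 8 chromosomes with clusters 52.1%. After ATRA 20 bins did (64.5%, all bins 56.3%, the 8 chromosomes 53.9%), and after TPA 20 bins (64.5%, all bins 57.8%, the 8 chromosomes 56.4%). Without balancing of coverage the median turned to 0.21 in untreated and 0.14 in ATRA-treated cells and stayed negative, at -0.29, after TPA. Of the 31 bins, 15 were on the B side in all 3 maps, 7 were on the A side in all 3, and 9 differed between maps; over all bins these shares were 45.4%, 33.9% and 20.7%. The 7 bins include 2 of cluster 14q11, whose scores are not comparable between maps and uncertain in sign, as given below.

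In untreated cells the lowest cluster means belonged to 1q44, the large OR2 cluster near the end of chromosome 1, at -1.26, and to 11q11, the OR5 and OR8 cluster near the centromere of chromosome 11, at -1.12. After treatment 11q11 was lowest (-1.15 after ATRA, -0.93 after TPA), followed by the single bin of 19p13 (-1.01 and -0.84) and by 1q44 (-0.95 and -0.76). The 3 bins of 1q44 scored -1.18, -1.48 and -1.13 in untreated cells, -1.23, -1.14 and -0.48 after ATRA, and -0.70, -1.21 and -0.37 after TPA. The 3 bins of 11q11 scored -0.92, -1.32 and -1.12 in untreated cells, -1.10, -1.16 and -1.19 after ATRA, and -0.69, -1.01 and -1.09 after TPA. All 18 of these values lay on the B side. The first 3 bins of the neighbouring 11q12 scored between -1.02 and -0.29 over the 3 maps, while its last bin, at 59.5 to 60 Mb, scored 0.76, -0.21 and 0.45. The 4 bins of 11p15, the class I cluster around the beta-globin genes, rose along the chromosome from -0.76 to -0.01 in untreated cells and kept that order of ends after both treatments (-0.40 to -0.15 and -0.66 to 0.08).

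On the A side, 1q23, whose run of receptors includes IFI16 and AIM2, scored 0.64, 0.90 and 0.57 in untreated cells, 1.43, 1.05 and 0.40 after ATRA, and 0.66, 0.42 and -0.23 after TPA. Its middle bin had the highest score of all 31 in untreated cells. Cluster 17p13, with receptors of families OR1 and OR3, scored 0.19, 0.52 and 0.24 in its single bin. At 9q31, whose receptors are of family OR13, the first bin scored -1.16, -1.24 and -0.71 and the second 0.54, 0.86 and 1.74. Which of these bins holds the receptor genes was not looked up. The bins of 14q11 scored 0.37 and 0.27 in untreated cells, 0.53 and 0.20 after ATRA, and 0.66 and 1.34 after TPA. These last values are not comparable between maps, because the scores of chromosome 14 in TPA-treated and untreated cells correlated at -0.64 over its 176 bins, where other autosomes reached from 0.66 to 0.98. With a score taken from contacts with other chromosomes, those of chromosome 14 correlated at -0.58 in untreated, -0.52 in ATRA-treated and 0.89 in TPA-treated cells. Their positive sign in untreated and ATRA-treated cells therefore does not place 14q11 on the A side.

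**Figure D1:**
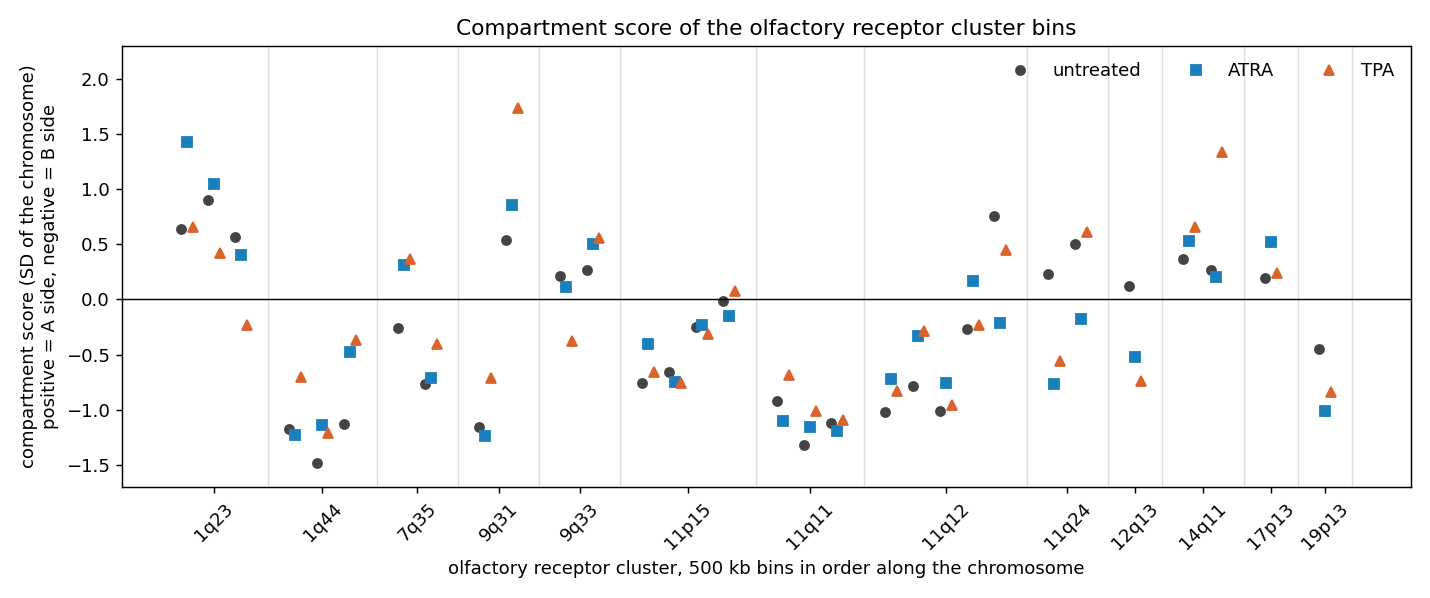
Compartment score (vertical axis, SD units of the chromosome) of the 31 cluster bins, grouped by cluster in order along the chromosome, in untreated (circles), ATRA-treated (squares) and TPA-treated (triangles) cells. All points of 1q44 and 11q11 lie below 0, and 1q23 holds the highest untreated value, 0.90.

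A second measure used only contacts with other chromosomes. The A preference of a bin is the log2 ratio of its contacts with A bins over expectation to its contacts with B bins over expectation, where the expectation comes from bin coverage and A and B bins lie on other chromosomes. A value of 0 means no preference, and the median over all bins was -0.19, -0.12 and -0.15 in untreated, ATRA-treated and TPA-treated cells. Cluster 1q44 had the lowest value in untreated cells, -0.61 (interval -0.71 to -0.51), from 1298 contacts with A bins and 2066 with B bins. It stood at -0.37 (-0.47 to -0.27) after ATRA and -0.33 (-0.43 to -0.23) after TPA. Cluster 11q11 followed with -0.50 (-0.60 to -0.40), -0.36 (-0.46 to -0.26) and -0.44 (-0.53 to -0.34). Bins of the same chromosome with coverage within 20% had medians of -0.22, -0.14 and -0.17 for 1q44 and -0.33, -0.15 and -0.21 for 11q11, above both clusters in each map.

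Cluster 17p13 had the highest A preference in all 3 maps, at 0.61 (0.46 to 0.76), 0.79 (0.64 to 0.95) and 0.72 (0.57 to 0.87), with coverage-matched medians of 0.45, 0.40 and 0.22. It touched chromosome 19, the most gene-dense human chromosome, at 2.45 times (2.00 to 2.97), 1.69 times (1.27 to 2.19) and 1.57 times (1.21 to 1.99) the expectation from coverage. No such value is given here for other bins of chromosome 17. Cluster 1q23 also preferred A bins, at 0.23 (0.15 to 0.32), 0.28 (0.20 to 0.36) and 0.19 (0.11 to 0.27), where its coverage-matched bins had medians of -0.12, -0.09 and -0.11. The 2 measures parted at 19p13, the OR7 cluster beside MUC16. Its score within chromosome 19 was negative in all 3 maps (-0.45, -1.01 and -0.84), while its A preference was 0.34 (0.20 to 0.49), -0.21 (-0.36 to -0.06) and 0.01 (-0.12 to 0.15). The score ranks a bin within its own chromosome, and the coverage-matched bins of chromosome 19 had median A preferences of 0.70, 0.27 and 0.51, above 19p13 each time. Cluster 14q11 gave no side to compare, since its score is uncertain in sign. Its A preference was -0.07 (-0.16 to 0.03), -0.10 (-0.20 to 0.005) and -0.09 (-0.19 to 0.007). Coverage-matched medians were -0.21, -0.11 and -0.19. Its first bin stood at -0.35, -0.31 and -0.44 and its second at 0.16, 0.07 and 0.16. Cluster 14q11 met chromosome 19 at 1.57 (1.33 to 1.83), 1.64 (1.37 to 1.94) and 1.58 (1.35 to 1.85) times the expectation. No such value is given here for other bins of chromosome 14.

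**Figure D2:**
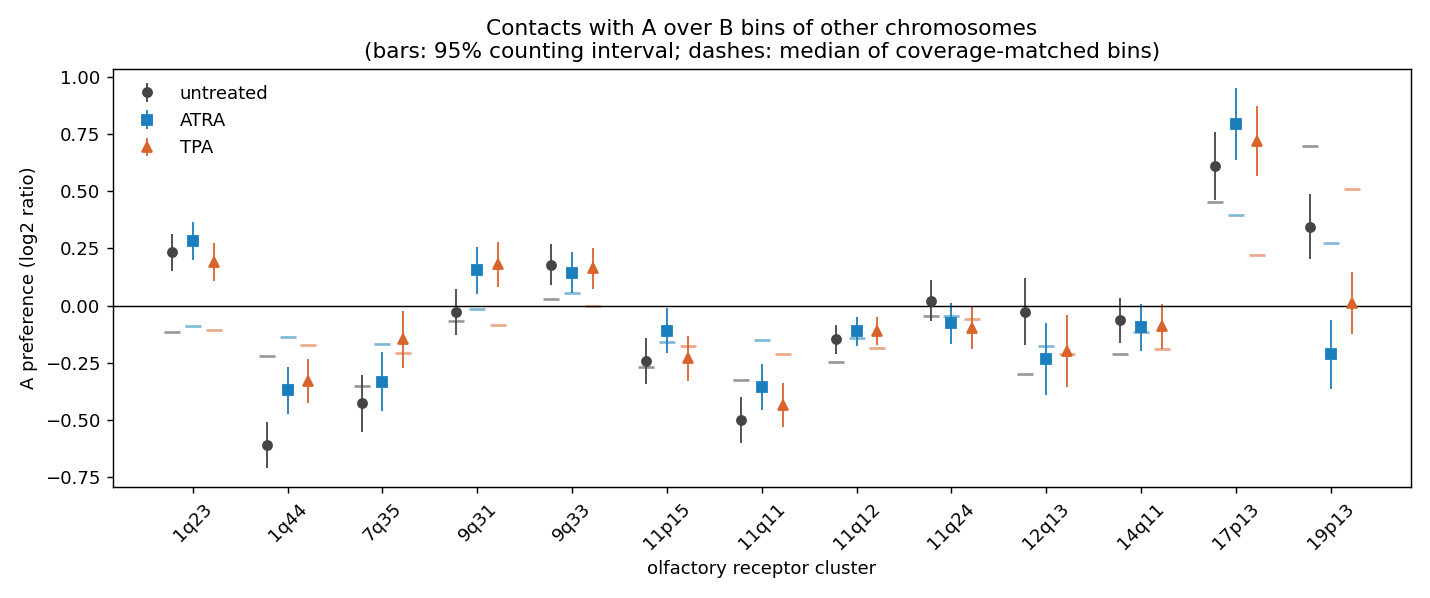
A preference (vertical axis, log2 ratio of contacts with A over B bins of other chromosomes) of the 13 clusters in the 3 maps, with 95% counting intervals. Dashes mark the median of bins of the same chromosome with like coverage; 1q44 and 11q11 lie below their dashes and 17p13 and 1q23 above theirs.

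Most clusters were less A-like than the chromatin beside them. The mean A preference of a cluster fell below the mean of the bins within 2 Mb on either side for 12 of 13 clusters in untreated cells, 12 after ATRA and 10 after TPA. Of 27514 runs of 1 to 5 bins taken over the whole genome, 53% lay below their flanks in untreated cells, 53.5% after ATRA and 52.8% after TPA. The widest gaps were at 12q13, the OR6 cluster, and at 19p13. Cluster 12q13 stood at -0.03, -0.23 and -0.20 and its flanks at 0.63, 0.51 and 0.56. Cluster 19p13 stood at 0.34, -0.21 and 0.01 and its flanks at 1.05, 0.68 and 0.81. The flanks of 17p13, the most A-like cluster, were higher still, at 1.09, 1.12 and 1.11. Clusters 11p15, 11q11 and 11q12 lay between 0.30 and 0.45 below their flanks in each map.

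Cluster 9q31 was the exception in all 3 maps, at -0.03, 0.16 and 0.17 against flanks of -0.39, -0.26 and -0.26. Its first bin stood at -0.27, -0.13 and -0.12 and its second at 0.20, 0.46 and 0.46. Receptor genes were not placed in single bins. After TPA, 7q35 (-0.18 against -0.24) and 11q24 (-0.09 against -0.17) also lay above their flanks, by 0.07 each. By the compartment score, 11, 11 and 10 of 13 clusters lay below their flanks, against 51.9%, 53.1% and 52.6% of runs. The single bin of 12q13 scored 0.12, -0.52 and -0.74 between flanks of 1.44, 1.45 and 1.47. The 3 maps share the genome and its mappable sequence, and coverage beside and inside the clusters was not matched in this comparison. The flanks of 1q44, 11q11 and 14q11 held only 5, 3 and 5 bins.

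**Figure D3:**
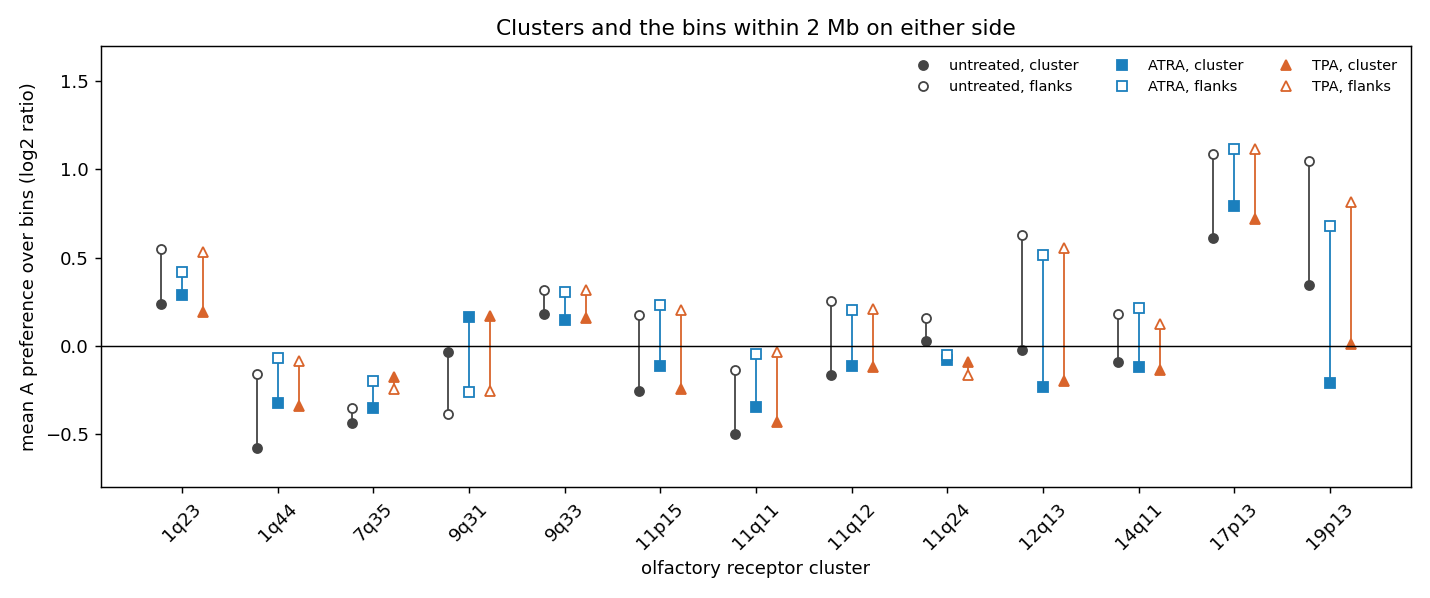
Mean A preference (vertical axis, log2 ratio) of each cluster (filled) and of the bins within 2 Mb on either side (open), joined by a line, in the 3 maps. Filled points lie below open ones in 12, 12 and 10 of 13 clusters, with the longest lines at 12q13 and 19p13.

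Between treated and untreated cells, no receptor bin passed the rule for a switch of compartment, although the side of 9 of 31 bins differed between maps. A switch required a score beyond 0.5 SD on one side in untreated cells and beyond 0.5 SD on the other side after treatment. After ATRA 0 of 31 cluster bins passed, where 0.622% of all bins did. After TPA 0 of 31 passed, where 3.36% of all bins did, so about 1 passing bin would have matched the genome. Without balancing of coverage 3 cluster bins passed after TPA. The share over all bins without balancing is not given here, so that count cannot be set against the genome. A fall of at least 0.5 SD was seen in 5 bins after ATRA (all bins 11.9%) and 4 after TPA (all bins 18.6%). A rise of that size was seen in 3 bins after ATRA (all bins 10.5%) and 5 after TPA (all bins 16.9%). Counts of this size are close to what the genome gave. Both treated maps are compared with the same untreated map.

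The deepest falls after ATRA were at 11q24, home of 11 OR8 receptors, and at the end of 11q12. At 11q24 the first bin went from 0.23 to -0.77 and the second from 0.50 to -0.18. The last bin of 11q12 went from 0.76 to -0.21. By A preference, the changes of these bins after ATRA (-0.07, -0.15 and -0.13) had intervals that held 0. The bins within 2 Mb of 11q24 had mean scores of 0.68 in untreated cells, -0.18 after ATRA and -0.01 after TPA. After TPA the first bin of 11q24 also stood lower, at -0.56, while the second stood at 0.61. The largest falls after TPA were at 12q13, from 0.12 to -0.74, the third bin of 1q23, from 0.57 to -0.23, and that first bin of 11q24. In that order their A preference changes after TPA were -0.17 (-0.38 to 0.04), -0.11 (-0.32 to 0.09) and -0.19 (-0.37 to -0.01). Coverage at 12q13 was 0.86 of the median bin in untreated cells, 0.77 after ATRA and 0.71 after TPA, and its part was not tested. The largest rises after ATRA were at the first bin of 1q23 (0.64 to 1.43), the third bin of 1q44 (-1.13 to -0.48) and the first bin of 7q35 (-0.26 to 0.31). After TPA they were at the second bin of 9q31 (0.54 to 1.74), the second bin of 14q11, whose chromosome is not comparable, and the third bin of 1q44 (-1.13 to -0.37). That bin of 1q44 held 0.45, 0.44 and 0.48 of the median coverage in untreated, ATRA-treated and TPA-treated cells.

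By A preference, 4 cluster bins were higher after ATRA with an interval above 0 (all bins 16.2%) and 1 was lower (all bins 8.22%). After TPA 4 were higher (all bins 15.9%) and 3 were lower (all bins 14%). Summed over a cluster, 1q44 was less B-like after both treatments. Its A preference was higher by 0.24 (0.10 to 0.38) after ATRA and by 0.28 (0.14 to 0.42) after TPA, where coverage-matched bins of chromosome 1 were higher by medians of 0.08 and 0.05. Those bins were not matched on A preference, and 1q44 was the lowest cluster in the untreated map that both comparisons share. The lower quartile of A preference over all bins was -0.35 in untreated, -0.24 in ATRA-treated and -0.30 in TPA-treated cells. Cluster 9q31 was higher by 0.18 (0.04 to 0.32) and 0.21 (0.07 to 0.35), against matched medians of 0.05 and -0.03. Cluster 7q35 was higher after TPA by 0.28 (0.11 to 0.46), against 0.14, and its change after ATRA, 0.10, had an interval of -0.08 to 0.27. The rise of 0.14 (0.003 to 0.28) at 11q11 after ATRA matched the 0.14 of its coverage-matched bins.

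Cluster 19p13 was the only cluster whose A preference was lower with an interval below 0. It differed by -0.56 (-0.76 to -0.35) after ATRA and by -0.33 (-0.53 to -0.14) after TPA. Its coverage-matched bins of chromosome 19 were also lower, by medians of -0.33 and -0.27. The remaining 8 clusters, among them 17p13 at 0.19 (-0.03 to 0.40) and 0.11 (-0.10 to 0.32), had intervals that held 0 in both comparisons. The coverage of the clusters relative to the median bin was lower after ATRA at 19p13 (1.10 in untreated cells, 0.90 after ATRA, 1.05 after TPA), and its part in the change was not tested.

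Receptor clusters on different chromosomes met about as often as their coverage predicts. The 351 bin pairs of 70 cluster pairs held 119 contacts in untreated cells where 119.9 were expected, a ratio of 0.992 (0.822 to 1.19). After ATRA they held 135 against 113.9, a ratio of 1.19 (0.994 to 1.40), and after TPA 113 against 118.8, a ratio of 0.951 (0.784 to 1.14). All 3 intervals held 1. The log2 change against untreated cells was 0.26 (-0.11 to 0.62) after ATRA and -0.06 (-0.45 to 0.32) after TPA. The sign of the change after TPA turned when 1 of 4 clusters was left out: it was 0.10 without 1q23, 0.07 without 9q31, 0.02 without 1q44 and 0.01 without 7q35. With the 3 maps summed, 367 contacts stood against 352.6 expected, a ratio of 1.04 (0.937 to 1.15), so that an excess above 1.15 lies outside the interval. Against bin pairs of the same chromosomes with like coverage the ratios were 0.997, 1.14 and 0.924, and with like compartment score as well 1.03, 1.13 and 0.925.

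The ratio after ATRA depended slightly on single clusters. It ran from 1.11 without 1q23 to 1.24 without 11q24, where the interval was 1.03 to 1.49. The intervals without 7q35 (1.00 to 1.45), 11q11 (1.00 to 1.44) and 17p13 (1.01 to 1.44) also lay just above 1. Cluster 1q23 met the clusters of other chromosomes at 1.43 times (1.02 to 1.95) the expectation after ATRA, against 1.14 (0.787 to 1.61) in untreated cells and 0.760 (0.477 to 1.15) after TPA. Cluster 7q35 met them at 0.348 times (0.113 to 0.813) the expectation after TPA, from few contacts. The other 37 of 39 values by cluster and map had intervals that held 1. Among 39 intervals at the 95% level, a few can leave out 1 by counting error alone. The 2 named values are therefore not set apart from counting error, and no such share is given here for other sets of bins. Split by compartment side, summed over the 3 maps, cluster bins met at 1.23 (0.981 to 1.51) for A with A, 0.931 (0.797 to 1.08) for A with B and 1.11 (0.914 to 1.35) for B with B. The same classes of all other bins gave 1.08, 0.932 and 1.06. Both bins of 14q11 were counted as A in this split, with scores of 1.93 and 2.76 in the summed map. The sign of those scores is uncertain, and the split was not repeated without 14q11. The values for A with A and A with B therefore rest partly on an uncertain side.

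Single cluster pairs were thinly covered, with a median expectation of 1.31 contacts in untreated cells and 0 contacts in 22 of the 70 pairs. In the summed map, 0 of 70 pairs had an interval that left out 1. Only 5 pairs had at least 10 expected contacts, all of them with 11q12, the longest cluster. Its pairs with 9q31 (17 contacts, ratio 1.26), 1q23 (24, ratio 1.24) and 14q11 (15, ratio 1.21) lay above 1. Its pairs with 9q33 (14, ratio 0.880) and 1q44 (7, ratio 0.517, interval 0.208 to 1.07) lay below 1. In TPA-treated cells 11q12 and 1q44 shared 0 contacts where 4.69 were expected, which allows a ratio of up to 0.787. Other pairs, with fewer expected contacts, had an interval above 1 in a single map. They were 11q24 with 14q11 after TPA (3.52, 1.42 to 7.26) and 1q23 with 9q31 after ATRA (2.70, 1.08 to 5.56). The third was 12q13 with 17p13 in untreated cells (8.59, 1.77 to 25.1). All of these were picked from 70 pairs in each of 3 maps.

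**Figure D4:**
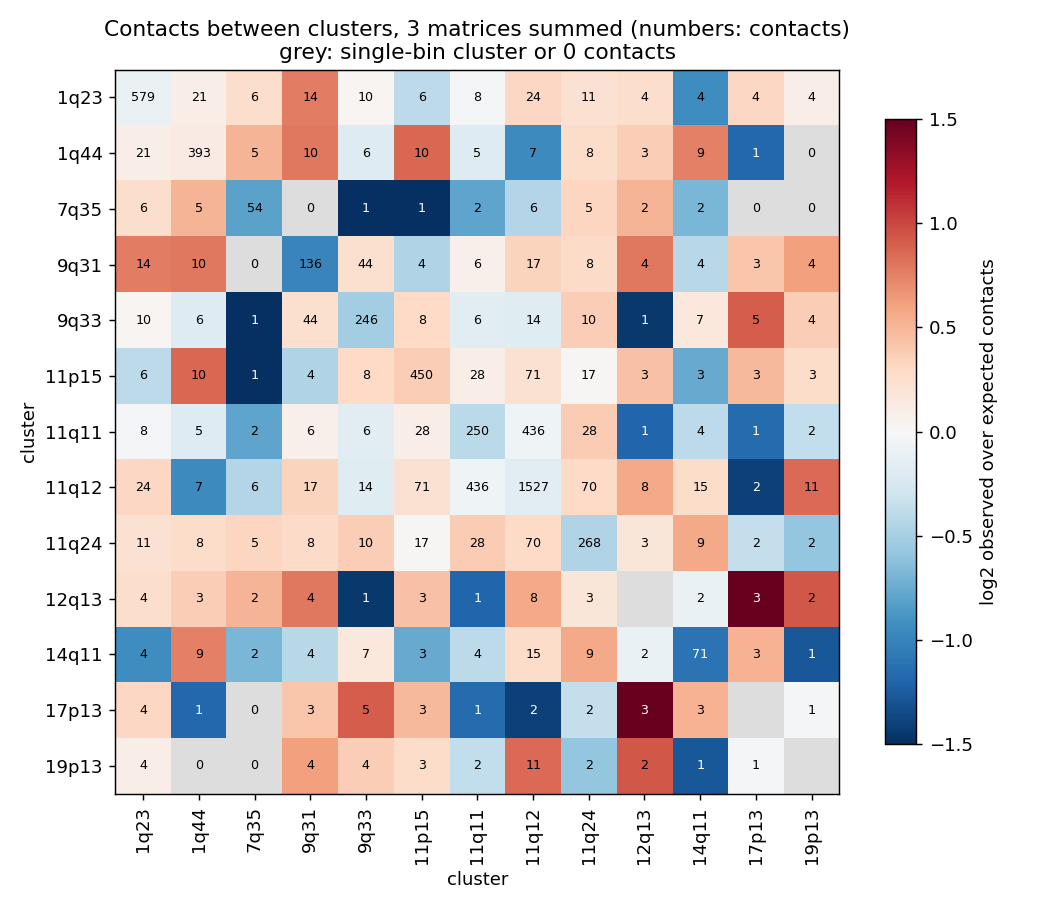
Contacts between clusters with the 3 maps summed: colour gives log2 of observed over expected contacts and the number in each cell gives contacts, with the bins of a cluster against each other on the diagonal. Strong colours off the diagonal sit on cells with few contacts, and 0 of 70 pairs on different chromosomes had an interval that left out 1.

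On the same chromosome, 8 cluster pairs with 84 bin pairs were compared, 6 of them on chromosome 11. They held 255 contacts against 253.0 expected from coverage and distance in untreated cells, a ratio of 1.01 (0.888 to 1.14). After ATRA the ratio was 0.940 (183 contacts, 0.808 to 1.09) and after TPA 1.11 (277 contacts, 0.985 to 1.25). The log2 changes were -0.10 (-0.38 to 0.18) and 0.14 (-0.11 to 0.39). Most of these contacts came from 11q11 and 11q12, which lie 3 Mb apart from centre to centre and held 169, 102 and 165 contacts, at ratios of 0.992 (0.848 to 1.15), 0.823 (0.671 to 0.999) and 1.01 (0.859 to 1.17). Without that pair the ratio was 1.04 (0.833 to 1.29) in untreated cells, 1.14 (0.908 to 1.42) after ATRA and 1.31 (1.08 to 1.58) after TPA. The log2 change after TPA for these pairs was 0.34, with an interval of -0.08 to 0.76.

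The higher value after TPA was spread over several long-range pairs. The class I cluster 11p15 and 11q12, 53.2 Mb apart across the centromere, held 19, 22 and 30 contacts at ratios of 0.889 (0.535 to 1.39), 1.25 (0.781 to 1.89) and 1.40 (0.944 to 2.00). Cluster 11q11 and cluster 11q24 held 6, 7 and 15 contacts at ratios of 0.833, 1.12 and 1.86 (1.04 to 3.08 after TPA). The OR13 and OR1 clusters of chromosome 9 held 12, 12 and 20 contacts at 0.952, 1.14 and 1.42 (0.865 to 2.19 after TPA). The pair of 11q12 and 11q24 held 25, 23 and 22 contacts at 1.28, 1.29 and 1.12. The clusters 1q23 and 1q44, on opposite sides of the compartment boundary, held 6, 5 and 10 contacts at 0.890, 0.890 and 1.38. The pair of 11p15 and 11q11 gave 0.888, 1.17 and 1.18, and that of 11p15 and 11q24 gave 1.65, 0.575 and 0.747 from 10, 3 and 4 contacts. Against bin pairs of like coverage at the same distance several of these ratios moved. The pair of 11p15 and 11q12 gave 1.03, 1.79 and 1.97, that of 11q12 and 11q24 gave 1.86, 1.69 and 1.29, and that of 11q11 and 11q24 gave 0.695, 1.04 and 1.71. The pair of 11p15 and 11q11 gave 1.62, 1.01 and 0.980, which reverses the order of untreated and treated maps. The pairs on chromosomes 9 and 1 gave 1.16, 1.29 and 1.57, and 0.955, 0.903 and 1.49. By the fitted expectation, for none of the 8 pairs did the interval of the change between treated and untreated cells leave out 0. Against bin pairs with like coverage at the same distance, the sum over all 84 gave 1.11 (0.982 to 1.26), 1.04 (0.891 to 1.20) and 1.20 (1.06 to 1.35).

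Bins of the same cluster met less often than the average pair at that distance on the same chromosome. The 30 bin pairs inside the 10 clusters of more than 1 bin held 1774 contacts in untreated cells at a ratio of 0.887 (0.846 to 0.929), 1085 after ATRA at 0.886 (0.834 to 0.940) and 1115 after TPA at 0.802 (0.755 to 0.850). Against bin pairs with like coverage the ratios were 0.931 (0.888 to 0.976), 0.996 (0.937 to 1.06) and 0.855 (0.806 to 0.907). For 27 of the 30 bin pairs there were also partners of like compartment score, and against those the ratios were 1.03 (0.982 to 1.08), 1.12 (1.05 to 1.19) and 0.936 (0.880 to 0.994). The 3 bin pairs without such partners came from 7q35, 11p15 and 14q11. Over the same 27 bin pairs the expectation from coverage and distance gave 0.895 (0.853 to 0.939), 0.916 (0.861 to 0.973) and 0.816 (0.768 to 0.867), and partners of like coverage and distance alone gave 0.955 (0.910 to 1.00), 1.05 (0.989 to 1.12) and 0.876 (0.824 to 0.930).

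Clusters differed in this respect, and for some the direction turned with the expectation. The 4 bins of 11p15 met each other at 1.33 (1.16 to 1.53), 1.14 (0.925 to 1.38) and 1.36 (1.14 to 1.60), and those of 1q44 at 1.20 (1.04 to 1.38), 1.13 (0.923 to 1.37) and 0.840 (0.677 to 1.03). Against bin pairs of like coverage at the same distance, 11p15 stood at 0.941, 0.872 and 1.04, so its excess was not seen in untreated and ATRA-treated cells. By that comparison 1q44 stood at 1.60, 1.43 and 1.15, and 11q12, which follows, at 1.13, 1.32 and 1.03, on the other side of 1 in all 3 maps. The 2 bins of 9q31, which lie on opposite compartment sides, met at 0.614 (0.484 to 0.768), 0.424 (0.282 to 0.613) and 0.385 (0.263 to 0.543). The bins of 14q11 met at 0.583 (0.414 to 0.796), 0.294 (0.152 to 0.513) and 0.438 (0.267 to 0.676), and those of 7q35 at 0.679, 0.459 and 0.498. Intermediate ratios were found for 11q12 (0.911, 0.942 and 0.818), 11q11 (0.868, 0.743 and 0.589), 9q33 (0.729, 0.737 and 0.606) and 11q24 (0.718, 0.703 and 0.801). The bins of 1q23 gave 0.804 (0.698 to 0.921) in untreated cells, 1.11 (0.958 to 1.28) after ATRA and 0.964 (0.829 to 1.12) after TPA. Against bin pairs of like coverage it gave 0.787, 1.22 and 0.993, while 7q35, 9q31, 9q33, 11q11, 11q24 and 14q11 stayed below 1 in each map, from 0.277 (14q11 after ATRA) to 0.794 (9q33 after ATRA). The log2 change of 1q23 after ATRA, from the fitted expectation, was 0.46 (0.17 to 0.76), and that of 14q11 was -0.99 (-2.06 to -0.02). After TPA the changes at 1q44 (-0.52, interval -0.89 to -0.15), 9q31 (-0.67, interval -1.32 to -0.06) and 11q11 (-0.56, interval -1.03 to -0.10) were below 0.

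**Figure D5:**
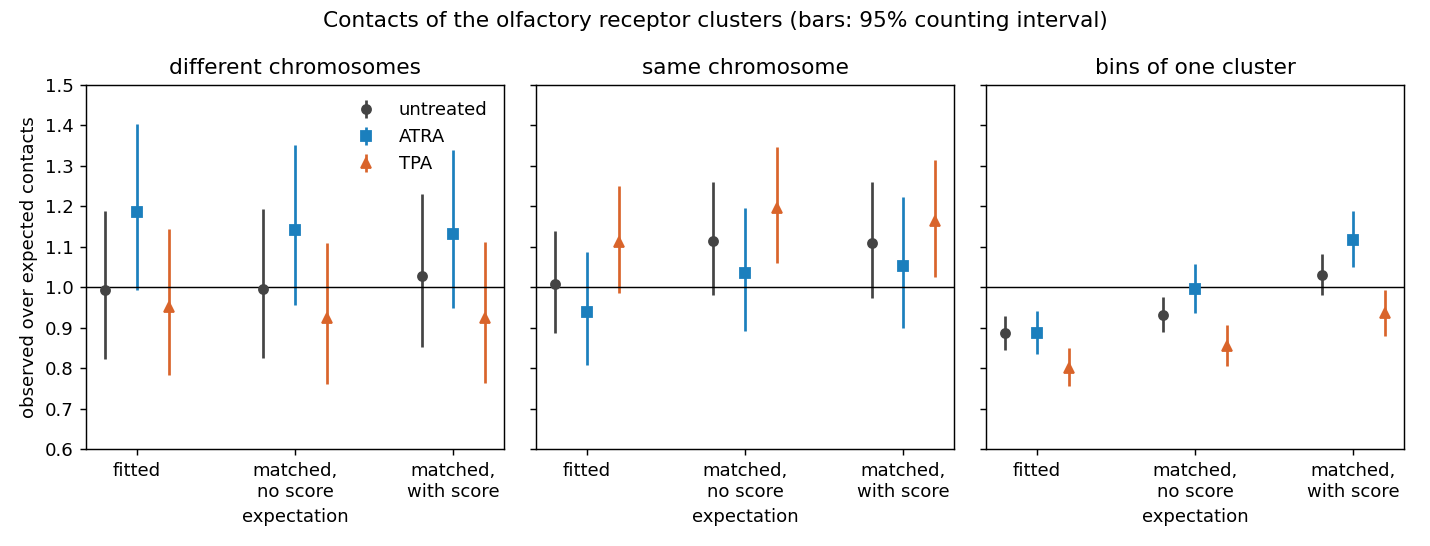
Observed over expected contacts (vertical axis) of clusters on different chromosomes, clusters on the same chromosome and bins of one cluster, under 3 expectations (fitted to coverage and distance, bin pairs matched without the score, bin pairs matched with the score), with 95% counting intervals. Values for different chromosomes lie between 0.924 and 1.19, with 1 inside each interval.

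The share of contacts that stayed close by was lower in both treated maps, in clusters and genome alike. At 1q44, 11% of contacts in untreated cells joined bins less than 2 Mb away, against 7.07% after ATRA and 5.95% after TPA. At 11q11 the shares were 7.40%, 4.02% and 3.58%, and at 1q23 they were 11.5%, 9.32% and 9.22%. The median over all bins was 10.0%, 6.26% and 7.42%. Cluster 14q11 kept the fewest contacts on its own chromosome, at 16.8%, 11.6% and 14.5%, where the median bin kept 35.3%, 28.7% and 33.6%.

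Joined segments, stretches of different chromosomes with an excess of contacts such as a translocation leaves, overlapped 2 clusters. Interchromosomal bin pairs that reached 20 summed contacts and 10 times the expectation were merged into 152 segments, 3 of them at receptor clusters. The segment at 107 to 110.5 Mb on chromosome 9, which begins with the OR13 cluster 9q31, was joined to 58.5 to 62.5 Mb on chromosome 14 by 497, 435 and 512 contacts, at 16.2, 13.7 and 17 times the expectation. A second bin pair joined 9q31 to 50 to 50.5 Mb of chromosome 14 by 8, 4 and 10 contacts. The segment at 20.5 to 22.5 Mb on chromosome 14, in 14q11, was joined to 38 to 39 Mb on chromosome 21 at 11.6, 9.13 and 9.46 times the expectation. No pair of receptor clusters lay inside a joined segment. Without 9q31 and 14q11 the ratio between clusters on different chromosomes was 0.961, 1.16 and 0.892. Outside joined segments the highest partner of any cluster was a bin at 81.5 to 82 Mb on chromosome 16, which met 7q35 with 5, 3 and 8 contacts, 10.5 times the expectation (6.03 to 17.1). It was picked as the highest of all partner bins with at least 10 summed contacts, which the interval does not take into account. Its 16 summed contacts fell short of the 20 required for a joined segment.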

How the data were processed

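Hi-C, which ligates DNA ends that lie close together in fixed nuclei, was applied to HL60 cells cut with HindIII, per the labels' protocols. Per the series' design text reads were aligned with Bowtie and filtered with HiCUP; the submitters' processing notes name HOMER 4.7 and hg19. The authors deposited for each condition 1 matrix of raw counts, in which 6203 bins of 500 kb are paired with each other, per the file headers. The 6083 bins of the autosomes and chromosome X were used, and the 120 other columns of each file were not analysed.

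Bins whose coverage was below 0.2 of the median in any map were dropped, which kept 5630. Maps were balanced in 60 iterations and divided by the mean at each distance, and the first eigenvector per chromosome was taken, with the second in its place if the first correlated above 0.7 with the arms. Its sign was set by contact with chromosome 19. Contacts between chromosomes were expected from the product of bin coverages. A bins (1813) and B bins (2309) were those beyond 0.5 SD in the summed map, with chromosomes 14 and 21 left out. Like bins had coverage within 20% and, where stated, scores within 0.5. Ratios carry exact Poisson intervals and changes exact binomial ones, except bin-wise and cluster-wise A preference changes, which use a normal approximation on log counts. The functions were tested on simulated data. Python 3.11.15, numpy 2.4.6, scipy 1.17.1 and pandas 2.3.3 were used.

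All 13 clusters are described. Single bins named are the 3 highest and 3 lowest scores and the 3 largest changes. Pairs named are those on the same chromosome and those with at least 10 expected contacts. Further pairs are named for an interval above 1 in a single map. The members and lists were chosen with earlier results of these data known, and the comparison with flanks and the gene windows were added after seeing the values. Receptor genes were matched to clusters by band and by runs of RefSeq receptor genes with gaps under 500 kb, so edges of runs and bins may differ. Genes of olfactory signalling elsewhere in the genome were not analysed here.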

Additional observations from a re-analysis of the deposited data

How the results depend on the processing

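Of 189 recomputed values, 169 stayed within the counting error or spread of the reported value. Among the medians and log2 changes, 7 of these had the other sign: the median score without balancing (0.21 in untreated and 0.14 in ATRA-treated cells), the TPA change between chromosomes without 1q23 (0.10), 9q31 (0.07), 1q44 (0.02) or 7q35 (0.01), and the ATRA change on the same chromosome without the pair of 11q11 and 11q12 (0.13). Leaving out the coverage term lowered both contact sums on the same chromosome. Between clusters it gave 0.705 in untreated, 0.672 in ATRA-treated and 0.782 in TPA-treated cells, and between bins of a cluster 0.601, 0.647 and 0.545. Within clusters, bin pairs of like coverage gave 0.931, 0.996 and 0.855, and a distance curve over all chromosomes gave 0.929 in untreated cells. Adding like score, which left 27 of 30 bin pairs, gave 1.03, 1.12 and 0.936; over those 27, an alternative added after seeing the data, partners of like coverage alone gave 0.955, 1.05 and 0.876. The cause was not tested. Without the pair of 11q11 and 11q12, chosen as an alternative after seeing the data, clusters on the same chromosome gave 1.14 after ATRA and 1.31 after TPA. Without balancing, 13 cluster bins lay on the B side in untreated cells, 12 after ATRA and 19 after TPA. Under that setting 3 passed the switch rule after TPA. Shares over all bins without balancing are not given here. Leaving out each cluster in turn moved the ratio between chromosomes over 0.921 to 1.06, 1.11 to 1.24 and 0.865 to 1.03. The alternative without cluster pairs in joined segments gave no value because there were none. No paired analysis was possible because the numbered libraries of a condition are merged into 1 matrix, and for the same reason no replicate could be left out.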

Other observations

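Over the 13 clusters, mean G and C content upstream of the receptor genes and A preference ran together, with Pearson's r of 0.61, 0.55 and 0.62 and Spearman's rho of 0.57, 0.42 and 0.50 in untreated, ATRA-treated and TPA-treated cells. The maps share the genome and several clusters lie on the same chromosome, so these are descriptions. Without 17p13 the r was 0.42, 0.21 and 0.36, so that the relation rests largely on that cluster. The HindIII site AAGCTT, at which the chromatin was cut, stood in 6.38% of receptor windows and 5.04% of all windows and reads the same on both strands.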
